A study of Homo sapiens with 4 samples.

Results

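The centrosome organises the microtubules of the cell, and many of its proteins are long coiled coils. Transcripts of 48 genes for centrosomal and centriolar proteins were measured in OVCAR5 cells carrying a control hairpin (shCtrl) or a hairpin against FOXK2 (shFOXK2). Not all of these proteins are long coiled coils: CEP19 has a coding length of 489 bases, and PLK4 is a kinase. The 48 genes were 32 genes whose symbol is CEP followed by a number and 16 genes named singly (LRRCC1, CCDC18, PCM1, CENPJ, CNTROB, NIN, NINL, PCNT, CDK5RAP2, AKAP9, OFD1, SASS6, STIL, PLK4, CNTLN and ODF2), out of 56655 gene symbols counted. The list was drawn up with the shFOXK2 versus shCtrl contrast in view and was selected in part on its fold changes: LRRCC1 and CCDC18 were among the largest rises of that contrast. Fold changes of the 48 genes between the groups are therefore given as a description, without a test over the list. All 48 passed the filter on low counts, which left 16417 genes to be tested. The symbols CEP20, CEP43 and CEP15 were not in the count tables.

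OVCAR5 is an established human ovarian cancer cell line that the labels class as high grade serous and give an ascites source. Both groups were stably transduced lentiviral lines selected with puromycin, grown in the same medium and otherwise untreated, so that the shCtrl cells also carried a vector and a nontargeting hairpin. Such a hairpin gives rise to a small interfering RNA, which directs the breakdown of transcripts that match it. Each group had 2 libraries of polyadenylated RNA. The labels number the libraries without saying whether they came from separate cultures, and they do not separate more than 1 hairpin against FOXK2, so p-values measure the spread between these libraries alone.

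A centriole is a small cylinder of microtubules that is copied once in each cell cycle, starting from a hub called the cartwheel. Pericentriolar material gathers around it and nucleates microtubules, satellites carry proteins towards it, appendages decorate the older centriole, and a linker ties the pair together. In a resting cell the older centriole becomes the base of the primary cilium. Centriole number and the mitotic poles that centrosomes form are often abnormal in cancer cells.

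The coding sequences of these genes were rich in adenine (A). Canonical GENCODE transcripts were found for 48 of 48 genes on hg38. The A content of the transcript ran from 22.3% in CEP131 to 41.1% in CEP290 with a median of 32.7%, against a median of 25.9% in 12722 tested protein-coding genes. Of the 48 genes, 42 lay above that median, and 28 lay above 31.6%, the 90th percentile of the protein-coding genes. The A content of the coding sequence alone had a median of 34.4% against 25.5%, and that of the 3′ untranslated region had a median of 31.7% against 27.2%. The glutamate codon GAA and the lysine codon AAA, both common in coiled coils, made up a median of 6.83% and 4.96% of codons, against 2.63% and 2.15% in all protein-coding genes. The genes were also longer, with a median coding length of 3066 bases against 1422 and a median of 20 exons against 9.

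To show what this composition looks like, the 60-base window with the most A inside a coding exon is given below for 3 of the 5 genes of highest A content and for the 4 of lowest A content, with every A in capitals. The windows of the first set were chr12:88120172-88120231 in CEP290 (minus strand), chr1:93254547-93254606 in CCDC18 (plus strand) and chr6:84174770-84174829 in CEP162 (minus strand). Those of the second set were chr17:81194912-81194971 in CEP131 (minus strand), chr17:7933289-7933348 in CNTROB (plus strand), chr5:644319-644378 in CEP72 (plus strand) and chr1:26268496-26268555 in CEP85 (plus strand). All coordinates are of hg38, all 7 windows are exonic and coding, and each sequence reads 5′ to 3′ on the strand of the gene.
CEP290: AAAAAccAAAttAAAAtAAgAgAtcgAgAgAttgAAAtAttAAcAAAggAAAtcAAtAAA
CCDC18: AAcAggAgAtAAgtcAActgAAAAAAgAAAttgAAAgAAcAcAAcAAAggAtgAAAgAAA
CEP162: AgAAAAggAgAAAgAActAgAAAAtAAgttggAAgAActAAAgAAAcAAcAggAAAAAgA
CEP131: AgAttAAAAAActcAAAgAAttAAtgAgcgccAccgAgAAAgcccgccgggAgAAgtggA
CNTROB: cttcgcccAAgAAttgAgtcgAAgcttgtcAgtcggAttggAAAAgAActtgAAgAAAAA
CEP72: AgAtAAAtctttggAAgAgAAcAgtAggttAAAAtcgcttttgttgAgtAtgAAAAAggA
CEP85: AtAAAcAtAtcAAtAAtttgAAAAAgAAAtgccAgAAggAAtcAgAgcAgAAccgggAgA
The richest windows of CEP290, CCDC18 and CEP162 held 36, 36 and 37 A in 60 bases. Those of CEP131, CNTROB, CEP72 and CEP85 held 25, 22, 24 and 30. Averaged over all such windows of a gene, the A content was 42.2% in CEP290 and 40.3% in CCDC18, against 22.2% in CEP131 and 22.1% in CNTROB.

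Library totals ran from 14284005 to 21950873 counts, at which 3 counts, the floor used here for detection, are worth 0.134 to 0.211 CPM (counts scaled to a common library total with TMM factors). The log2 CPM of replicates correlated at 0.985 in shCtrl and 0.981 in shFOXK2, and libraries of different groups at 0.857 to 0.879. Some series-wide measures moved with the groups. MALAT1, a long nuclear RNA, took 0.0427% and 0.0239% of counts in shCtrl and 1.19% and 1.02% in shFOXK2. A list of 20 dividing-cell genes summed to 2453 and 2626 CPM in shCtrl and to 6606 and 6618 CPM in shFOXK2. Of the 20, 12 were higher and 0 lower, beside 25.7% and 22.7% of all tested genes. The other 8 were not called, and the median log2 fold change of the list was 0.89. TOP2A alone went from a mean of 160 CPM in shCtrl to 2184 CPM in shFOXK2. Mitochondrial genes took 6.71% and 8.87% of counts in shCtrl and 9.58% and 8.60% in shFOXK2, so the groups overlapped there. The part of these differences in the results was not tested. Keratins of epithelial cells were abundant in every library, Of 6 Müllerian or serous markers, WT1, ESR1 and SOX17 did not pass the filter, PAX8 and MUC16 were lower and MSLN was higher, with MUC16 counted 397 and 145 times in shCtrl against 0 and 8 times in shFOXK2. Of 9 epithelial markers 0 rose and 3 fell (CDH1, CLDN3 and CLDN4), beside the same 25.7% and 22.7% of all tested genes. The summed level of the 9 was 4344 and 5787 CPM in shCtrl and 4248 and 5423 CPM in shFOXK2. Blood cell markers summed to at most 0.422 CPM in any library and none of the 4 passed the filter. Fibroblast markers summed to 18.9 to 20.5 CPM in shCtrl and 13.6 to 16.5 CPM in shFOXK2, and endothelial markers to 7.72 to 10.6 CPM and 0.633 to 2.03 CPM. Only COL1A1 and PDGFRB of the fibroblast markers and PECAM1 and CDH5 of the endothelial markers passed the filter. All libraries were of the OVCAR5 line, so these values are not read as the presence of other cell types. A smaller share of cells with a transcript and less of it per cell cannot be told apart in such bulk samples.

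FOXK2 itself (chr17:82519713-82644662, plus strand), the targeted gene, was counted 1796 and 1499 times in shCtrl against 1086 and 1084 times in shFOXK2. Scaled for depth, this was 86.9 ± 9.10 CPM in shCtrl and 67.9 ± 11.9 CPM in shFOXK2 (SD, n = 2), a log2 fold change of -0.36 (SE 0.25). The shFOXK2 libraries were the lower in each pairing, but the difference did not pass the test (edgeR quasi-likelihood test, Benjamini-Hochberg adjusted p = 0.257). The transcript counts thus did not show a lowering of FOXK2 beyond the error of the fit in the libraries labelled shFOXK2. By other assays, the paper reported lower FOXK2 mRNA (qRT-PCR) and protein (Western blot) in OVCAR5 cells with hairpins against FOXK2.

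Most of the centrosomal genes had more transcript in shFOXK2. In the edgeR fit over all genes, 32 of the 48 were higher in shFOXK2 at an adjusted p under 0.05, 2 were lower (CEP68 and NINL) and 14 were not called. Over all 16417 tested genes 48.4% were called, 25.7% as higher and 22.7% as lower, and since the list was selected on this contrast nothing is read from the comparison of these shares. Both shFOXK2 libraries lay above both shCtrl libraries in 40 of the 48 genes and below them in 4, CEP68 and NINL among them, and the groups overlapped in CEP19, CEP192, CEP85 and NIN. Across all tested genes 75.4% did not overlap. The median log2 fold change was 1.14 in the centrosomal genes and 0.04 in all tested genes. Their summed level was 1038 and 870 CPM in shCtrl and 2205 and 2352 CPM in shFOXK2. The 2 shCtrl libraries differed from each other in these genes: 36 of 48 were higher in replicate 1, by up to 3.74-fold in CEP97, and 15 differed by more than 2-fold, whereas 0 of 48 did so between the shFOXK2 libraries. Without shCtrl replicate 1 the median log2 fold change was 1.77, and without shCtrl replicate 2 it was 0.88.

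**Figure D1:**
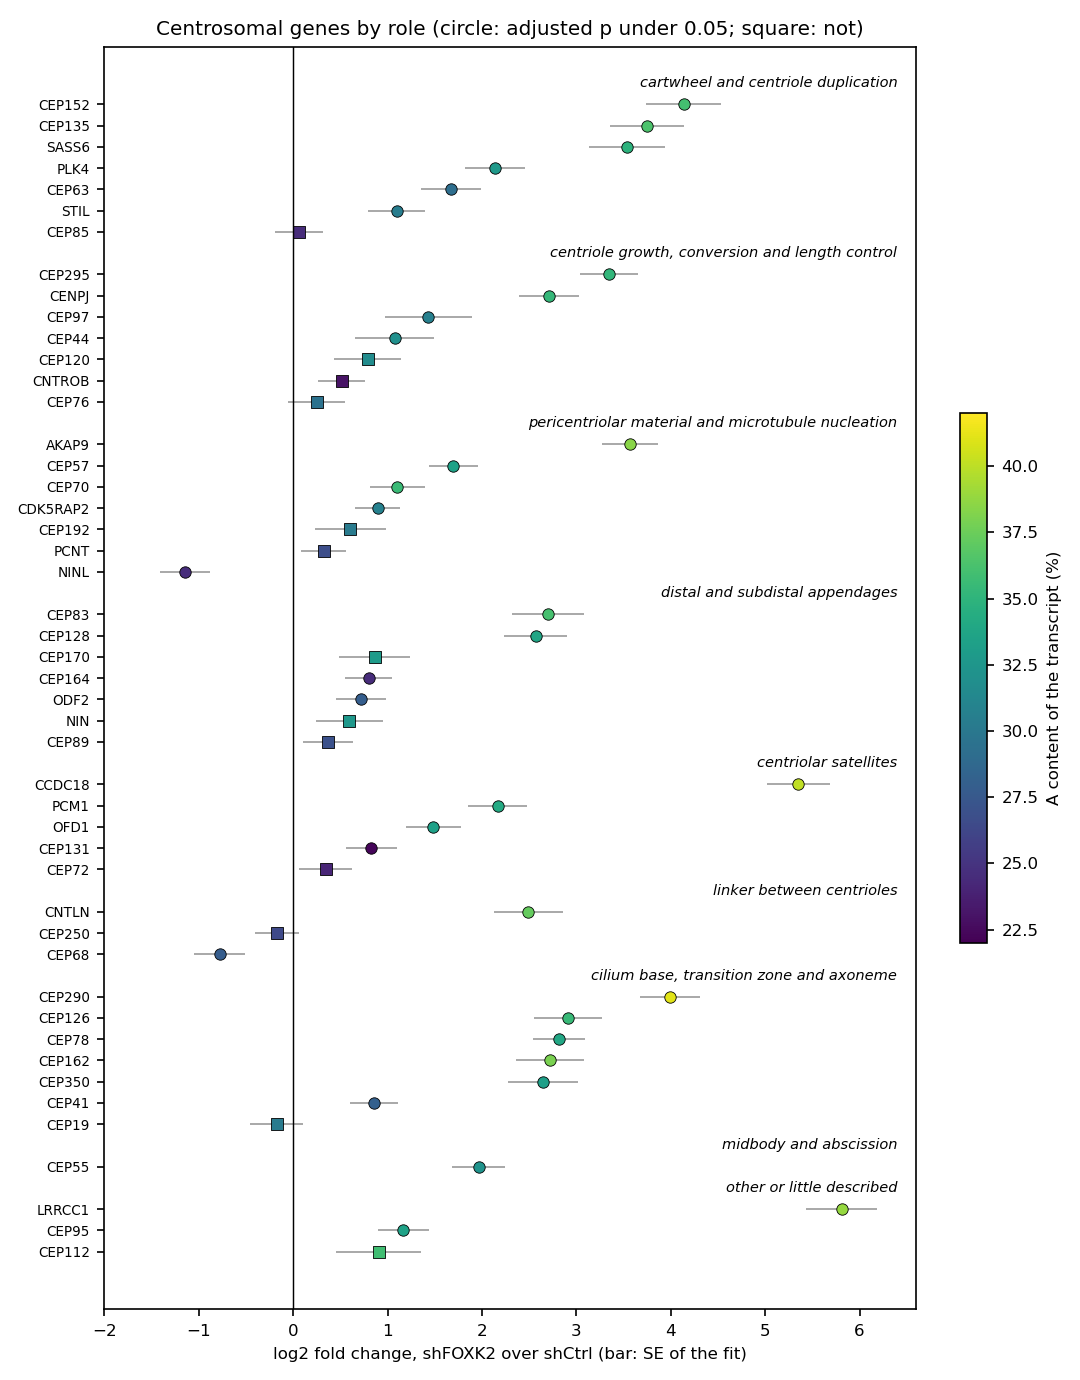
Log2 fold change of 47 of the 48 genes, shFOXK2 over shCtrl (x axis), grouped by role, with bars for the SE of the edgeR fit (2 libraries per group). Circles mark the 34 genes with an adjusted p under 0.05, squares the 13 others, and the colour gives the A content of the transcript. LRRCC1 at 5.81 and CCDC18 at 5.35 stand to the right of all others, and NINL at -1.15 is the lowest.

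LRRCC1 and CCDC18, for which the list was drawn up, had low levels in shCtrl, as did other A-rich members such as CEP162 (mean 1.49 CPM). LRRCC1, which encodes a leucine-rich repeat protein of centrioles (chr8:85107215-85146080, plus strand), was counted 38 and 13 times in shCtrl against 933 and 1458 times in shFOXK2. That was 1.26 ± 0.632 CPM against 72.8 ± 10.3 CPM (SD, n = 2), or 56.1-fold, a log2 fold change of 5.81 (SE 0.38). CCDC18, a little-studied coiled-coil protein placed here with the satellites (chr1:93179919-93278730, plus strand), was counted 46 and 32 times in shCtrl against 971 and 1783 times in shFOXK2. Its level was 2.03 ± 0.0484 CPM in shCtrl and 83.1 ± 21.0 CPM in shFOXK2, or 40.8-fold (log2 fold change 5.35, SE 0.33). In both genes each shFOXK2 library was far above each shCtrl library, and the shCtrl counts were above the floor of 3.

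Among 7 genes of the cartwheel and of centriole duplication, 6 were higher and 0 lower, with a median log2 fold change of 2.13. Counts by role, here and in the groups below, stand beside 25.7% higher and 22.7% lower over all tested genes. As the list was selected on this contrast, nothing is read from them about a role. CEP152, the scaffold that brings the kinase PLK4 to the centriole, had 5.38 and 2.06 CPM in shCtrl and 58.5 and 74.7 CPM in shFOXK2 (log2 fold change 4.14, SE 0.40). CEP135, which joins the cartwheel to the microtubule wall, had 3.72 and 1.495 CPM in shCtrl and 31.5 and 40.2 CPM in shFOXK2 (3.75, SE 0.40). SASS6, the protein of the cartwheel hub, had 3.81 and 1.62 CPM in shCtrl and 25.6 and 38.5 CPM in shFOXK2 (3.53, SE 0.40). These 3 genes had A contents of 36.04%, 36.3% and 34.8%, and their shFOXK2 libraries were all several times above either shCtrl library. The kinase PLK4, which starts duplication, had 9.01 and 5.36 CPM in shCtrl and 32.7 and 30.8 CPM in shFOXK2 (2.13, SE 0.32). CEP63, the partner of CEP152, had 11.8 and 7.04 CPM against 27.3 and 33.0 CPM (1.67, SE 0.31), at an A content of 29.2%. STIL, the substrate through which PLK4 recruits SASS6, had 28.5 and 16.3 CPM in shCtrl and 52.0 and 44.2 CPM in shFOXK2 (1.10, SE 0.30), and it was not called without shCtrl replicate 2 (0.68). CEP85, a protein that binds STIL, was the exception, with 38.1 and 41.3 CPM in shCtrl and 45.1 and 37.6 CPM in shFOXK2. Its libraries overlapped, its log2 fold change of 0.06 (SE 0.25) was within the error of the fit, and at 24.5% it had the lowest A content of the 7.

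Among 7 genes of centriole growth, conversion and length control, 4 were higher and 0 lower, with a median log2 fold change of 1.07. CEP295, needed for a new centriole to become a centrosome, had 6.86 and 4.92 CPM in shCtrl and 51.4 and 68.7 CPM in shFOXK2 (3.34, SE 0.31). CENPJ, also known as CPAP, a tubulin-binding protein of centriole elongation, had 9.68 and 5.48 CPM in shCtrl and 47.6 and 52.5 CPM in shFOXK2 (2.71, SE 0.32). Both are A-rich, at 35.2% and 35.3%. CEP97, which caps the growing end with CCP110, rose by less (1.43, SE 0.46), and its shCtrl libraries stood apart at 6.99 and 1.87 CPM against 10.8 and 13.5 CPM in shFOXK2. CEP44, a protein of the centriole lumen, was called higher at 1.07 (SE 0.42), with 5.74 and 2.18 CPM in shCtrl and 6.82 and 10.1 CPM in shFOXK2. In both genes shCtrl replicate 1 was much nearer to shFOXK2 than replicate 2 was, and neither was called without shCtrl replicate 2. CEP120 and CNTROB, both factors of centriole elongation, and CEP76, which limits reduplication, were not called, at 0.79, 0.52 and 0.25. CEP120 had 18.3 and 7.85 CPM in shCtrl and 23.3 and 22.1 CPM in shFOXK2, so that its spread within shCtrl was larger than the gap between shCtrl replicate 1 and the shFOXK2 libraries, and it was called without shCtrl replicate 1.

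The pericentriolar material was split, with 4 of 7 higher, 1 lower and a median of 0.90. AKAP9, a very long scaffold that nucleates microtubules at the centrosome and the Golgi, had 12.3 and 12.2 CPM in shCtrl and 112 and 177 CPM in shFOXK2 (3.56, SE 0.30). CEP57, which ties the material to the centriole, had 31.6 and 24.5 CPM in shCtrl and 86.4 and 95.6 CPM in shFOXK2 (1.70, SE 0.26). The groups were far apart in both. CEP70 and CDK5RAP2, the latter an activator of the gamma-tubulin ring complex, rose by 1.10 (SE 0.29) and 0.90 (SE 0.24), and CEP70 was not called without shFOXK2 replicate 2 (0.87). PCNT (pericentrin), the main scaffold of the material, had 51.1 and 51.3 CPM in shCtrl and 61.8 and 66.1 CPM in shFOXK2 and was not called (0.32, SE 0.24). CEP192, a scaffold for mitotic kinases, was not called either (0.61, SE 0.38): its shCtrl libraries held 38.7 and 13.8 CPM and its shFOXK2 libraries 36.7 and 43.6 CPM, so that the groups overlapped. Without shCtrl replicate 1 it was called higher (1.501). NINL, a ninein-like protein that binds gamma-tubulin (chr20:25451594-25585531, minus strand), went the other way. It had 32.6 and 33.8 CPM in shCtrl and 14.1 and 15.8 CPM in shFOXK2, and fell by 1.15 on the log2 scale (SE 0.27). Both shFOXK2 libraries were below both shCtrl libraries.

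In the appendages, 4 of 7 genes were higher and 0 lower, with a median of 0.80. CEP83, which anchors the distal appendages, had 5.11 and 2.18 CPM in shCtrl and 24.3 and 23.8 CPM in shFOXK2 (2.70, SE 0.38), and CEP128 of the subdistal appendages rose by 2.57 (SE 0.33). The distal appendage protein CEP164, at only 24.5% A, had 51.2 and 51.0 CPM in shCtrl and 100 and 78.0 CPM in shFOXK2 (0.80, SE 0.25). Without shCtrl replicate 2 or shFOXK2 replicate 1 CEP164 was not called. ODF2 rose by 0.72 (SE 0.26), a call that was lost under DESeq2, without a filter, with the replicate block, and without shCtrl replicate 1 or shFOXK2 replicate 1. CEP89, the lowest of the group, was not called (0.37, SE 0.26). NIN (ninein), a microtubule anchor, had 48.8 and 19.2 CPM in shCtrl and 47.9 and 54.8 CPM in shFOXK2, so that shCtrl replicate 1 lay within the shFOXK2 range. CEP170 also had its lowest level in shCtrl replicate 2, with 20.1 and 7.66 CPM in shCtrl and 25.8 and 24.996 CPM in shFOXK2, and has a near-identical pseudogene copy to which reads could be lost. NIN and CEP170 were not called (0.59 and 0.86), but both were without shCtrl replicate 1 (1.38 and 1.69).

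Among the satellite genes 4 of 5 were higher and 0 lower. PCM1, the scaffold of the satellites, had 18.6 and 10.7 CPM in shCtrl and 59.1 and 72.6 CPM in shFOXK2 (2.17, SE 0.31). OFD1, which is mutated in a ciliopathy, had 15.3 and 10.3 CPM in shCtrl and 32.8 and 39.3 CPM in shFOXK2 (1.49, SE 0.29). CEP131, the gene of lowest A content in the list, had 14.7 and 17.9 CPM in shCtrl and 29.7 and 28.2 CPM in shFOXK2 (0.83, SE 0.27). The groups did not overlap in these 3 genes, but CEP131 was not called without a filter or when any of shCtrl replicate 1, shFOXK2 replicate 1 or shFOXK2 replicate 2 was left out. CEP72 was not called (0.34, SE 0.28). The 3 linker genes went 3 ways. CNTLN (centlein) had 6.41 and 3.05 CPM in shCtrl and 23.7 and 30.2 CPM in shFOXK2 (2.49, SE 0.36). CEP250, or C-Nap1, which roots the linker at the centriole ends, had 116 CPM in both shCtrl libraries and 112 and 94.2 CPM in shFOXK2 (-0.17, SE 0.23, not called). CEP68, a linker fibre protein, had 28.8 and 25.9 CPM in shCtrl and 16.9 and 15.0 CPM in shFOXK2 and fell by 0.78 on the log2 scale (SE 0.27). CEP68 lost its call when the replicate number was used as a block and when any of shCtrl replicate 1, shFOXK2 replicate 1 or shFOXK2 replicate 2 was left out.

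Of 8 genes of the cilium base and axoneme, 6 were higher and 0 lower, with a median of 2.68. CEP290, the Y-link protein of the transition zone and a common cause of inherited blindness, had 3.54 and 4.98 CPM in shCtrl and 56.8 and 77.8 CPM in shFOXK2 (3.99, SE 0.32). CEP162, which marks where the transition zone forms, had 1.48 and 1.495 CPM in shCtrl and 8.93 and 10.7 CPM in shFOXK2 (2.72, SE 0.36). The groups were far apart in both, and the shCtrl replicates of CEP162 were at nearly the same level. CEP126, CEP78 and CEP350 rose by 2.91, 2.82 and 2.65, and CEP41, a regulator of tubulin glutamylation, by 0.85, a call lost without shFOXK2 replicate 1. CEP19 overlapped between the groups (-0.17, SE 0.28). CEP55, which brings the abscission machinery to the midbody at the end of division, had 30.3 and 20.4 CPM in shCtrl and 111 and 87.8 CPM in shFOXK2 (1.96, SE 0.28). The remaining genes were CEP95, which rose by 1.17 (SE 0.27), and CEP112, a gene of low counts, with 48 and 13 counts in shCtrl against 39 and 54 in shFOXK2, which was not called (0.91, SE 0.45), although it was without shCtrl replicate 1 (1.77).

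**Figure D2:**
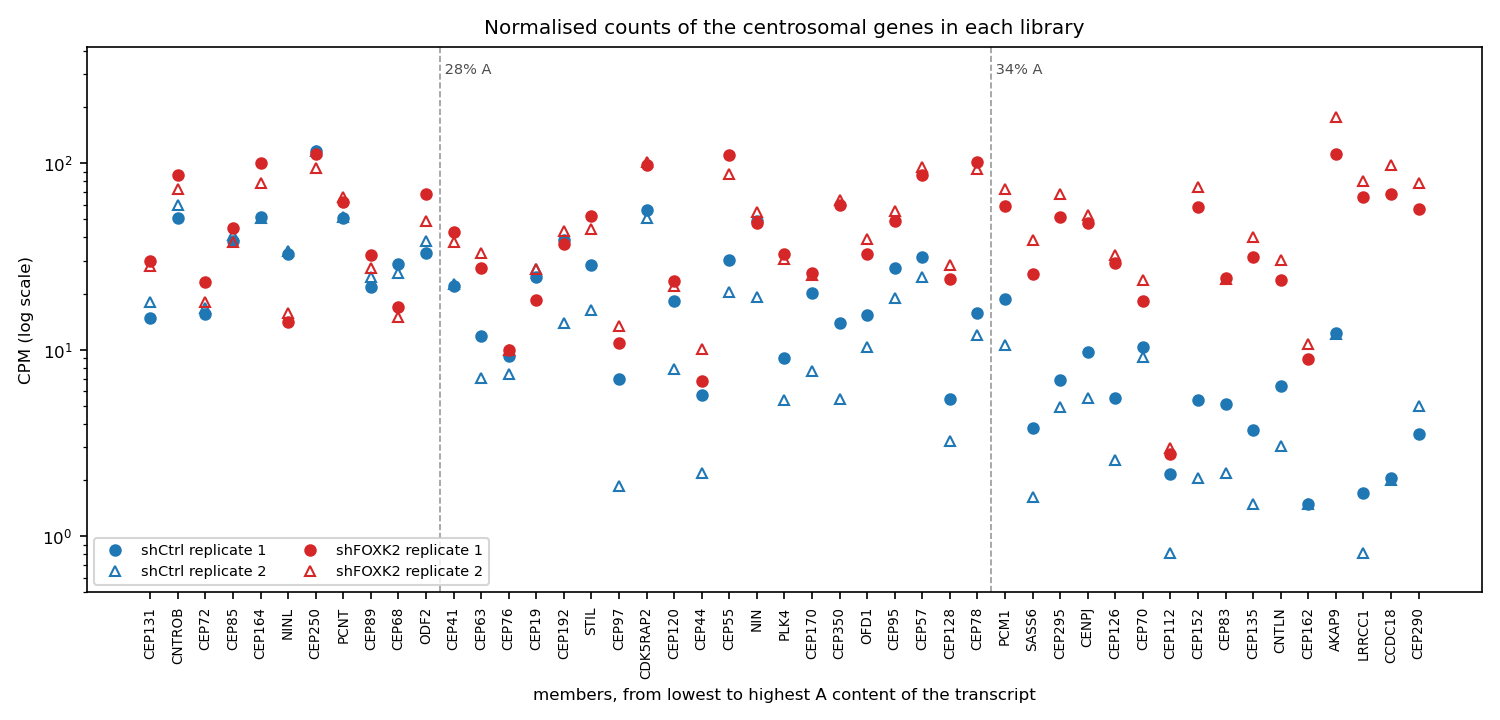
CPM of 47 of the 48 genes (y axis, log scale) in each of the 4 libraries, with the genes ordered by the A content of their transcript (x axis) and dashed lines at 28% and 34% A. The shFOXK2 libraries (red) lie close to the shCtrl libraries (blue) at the left and far above them at the right, and the open triangles of shCtrl replicate 2 fall below the filled circles of shCtrl replicate 1 in much of the middle and right.

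The size of the difference followed the A content of the transcript. With boundaries set after the values were seen, the median log2 fold change was 0.33 in the 12 genes under 28% A, with 3 higher and 2 lower. The 20 genes from 28% to 34% had a median of 1.13, with 14 higher and 0 lower. The 16 genes of 34% and over had a median of 3.13, with 15 higher and 0 lower, CEP112 being the one not called. The summed level of the first class was 499 and 521 CPM in shCtrl and 625 and 531 CPM in shFOXK2. That of the second was 440 and 284 CPM in shCtrl and 896 and 916 CPM in shFOXK2. That of the third was 98.7 and 65.4 CPM in shCtrl and 684 and 904 CPM in shFOXK2. The totals of the low-A genes thus differed little between the groups, and those of the A-rich genes differed most. Per kilobase of transcript, the median level in the low-A class was 6.81 and 6.99 RPKM in shCtrl and 7.72 and 6.95 RPKM in shFOXK2. In the A-rich class it was 0.912 and 0.487 RPKM in shCtrl and 6.74 and 8.76 RPKM in shFOXK2. On this scale the A-rich genes were lower than the low-A genes in both shCtrl libraries and at a similar level in the shFOXK2 libraries.

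Across the 48 genes, Spearman's coefficient between A content and log2 fold change was 0.87 and Pearson's r was 0.81, given as a description because the genes share their 4 libraries. Over each of the 4 pairs of 1 shFOXK2 and 1 shCtrl library, it ran from 0.74 to 0.85. The A content of the coding sequence gave 0.81, that of the 3′ untranslated region 0.53, GC content -0.76, the share of AAA codons 0.78, transcript length 0.09 and the longest run of A 0.06. The log2 level in shCtrl, which shares its values with the fold change, gave -0.76. Over the 12722 protein-coding genes, the coefficient for A content was 0.34.

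Genes outside the list were also higher more often at high A content. Of tested protein-coding genes outside the list, 12.4% were higher among 8168 under 28% A, 31.4% among 4220 from 28% to 34%, and 80.8% among 286 of 34% and over, and their median log2 fold changes were -0.33, 0.33 and 1.97. In the 24 non-member genes of 38% A and over the median was 3.53, and in the 5 centrosomal genes of that range (CEP162, AKAP9, CEP290, CCDC18 and LRRCC1) it was 3.99. Set against genes of like A content, in bins mostly 2 percentage points wide, 37 of the 48 lay above the median of their bin, 22 above its upper quartile and 3 (NINL, CEP19 and CEP112) below its lower quartile. In the bin from 22% to 24%, CEP131 and CNTROB had a median of 0.67 and all genes -0.40. From 32% to 34%, 10 centrosomal genes had a median of 1.83 and all 706 genes 1.04. Since the list was selected in part on these fold changes, nothing is read from the centrosomal genes lying above genes of like A content.

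**Figure D3:**
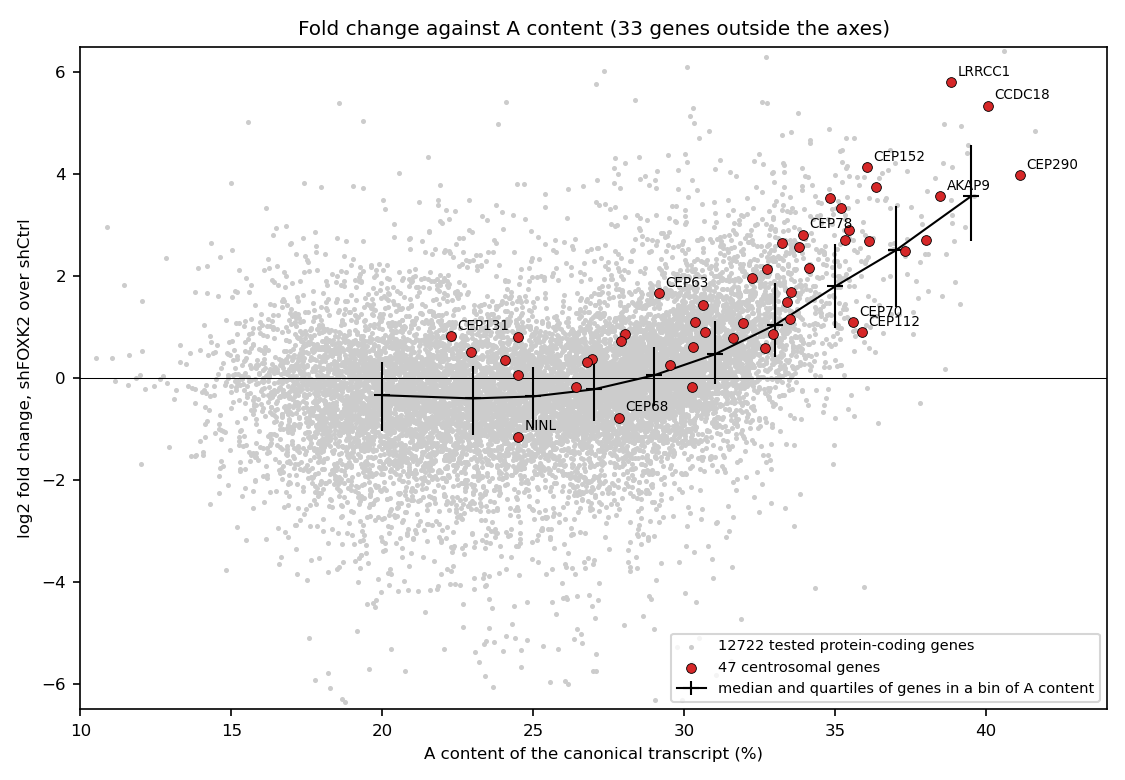
Log2 fold change, shFOXK2 over shCtrl (y axis), against the A content of the canonical transcript (x axis) for 12722 tested protein-coding genes (grey), with the median and quartiles of bins of A content (black) and 47 of the 48 centrosomal genes (red). The bin medians run from -0.34 below 22% A to 3.57 at 38% and over, and 33 genes lie outside the axes.

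A fit with an offset for A content, a smooth curve of each library's counts against transcript A content, lowered the values of the A-rich genes. The change in a gene's log2 fold change had a median of 0.25 over all tested genes, but it depended on A content. Among protein-coding genes under 28% A, the median log2 fold change went from -0.33 to -0.03. From 28% to 34% it went from 0.33 to -0.045, and at 34% and over from 2.01 to 0.15. Values under the offset are best set beside genes of like A content. Under the offset 25 of the 48 were higher and 3 lower (NINL, CEP68 and CEP70), beside 28.8% and 22.4% of all tested genes. The median was 0.67 against 0.10 over all genes. Given how the list was drawn up, nothing is read from this comparison either. Of the 34 calls without the offset, 23 remained in the same direction. LRRCC1 had 2.93, CEP152 2.11, CCDC18 2.07, SASS6 1.85 and CEP135 1.62, all still called higher. CEP290 went from 3.99 to 0.37, CEP162 from 2.72 to 0.07 and CNTLN from 2.49 to 0.08, and none of the 3 was called. OFD1 (0.20), CEP57 (0.36), CEP83 (0.66), CEP97 (1.04), CEP44 (0.29), CDK5RAP2 (0.37) and CEP95 (-0.16) lost their calls too, and CEP70 changed from higher to lower (-0.85). The low-A genes moved the other way, and CNTROB (0.87), CEP72 (0.69), CEP89 (0.58) and PCNT (0.56) were called higher with the offset and not without it. CEP112 (-1.06), CEP170 (-0.21), NIN (-0.40) and CEP250 (0.10) changed sign without a call in either fit. By class, the medians of the 48 genes were 0.57 under 28% A, 0.36 from 28% to 34% and 0.81 at 34% and over. Spearman's coefficient with A content over the 48 genes was 0.19. The offset did not level the A-rich end. Medians of all protein-coding genes under it were still 0.23 from 36% to 38% A and 0.67 at 38% and over. In the duplication group 6 of 7 were higher with and without the offset, and its median was 1.57 with it. With the offset, 14 of 20 dividing-cell genes were higher and 0 lower (median 0.98). Of 31 coiled-coil genes away from the centrosome, described below, 16 were higher and 5 lower (median 0.83). These counts stand beside the 28.8% higher and 22.4% lower of all tested genes, and nothing is read from them.

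**Figure D4:**
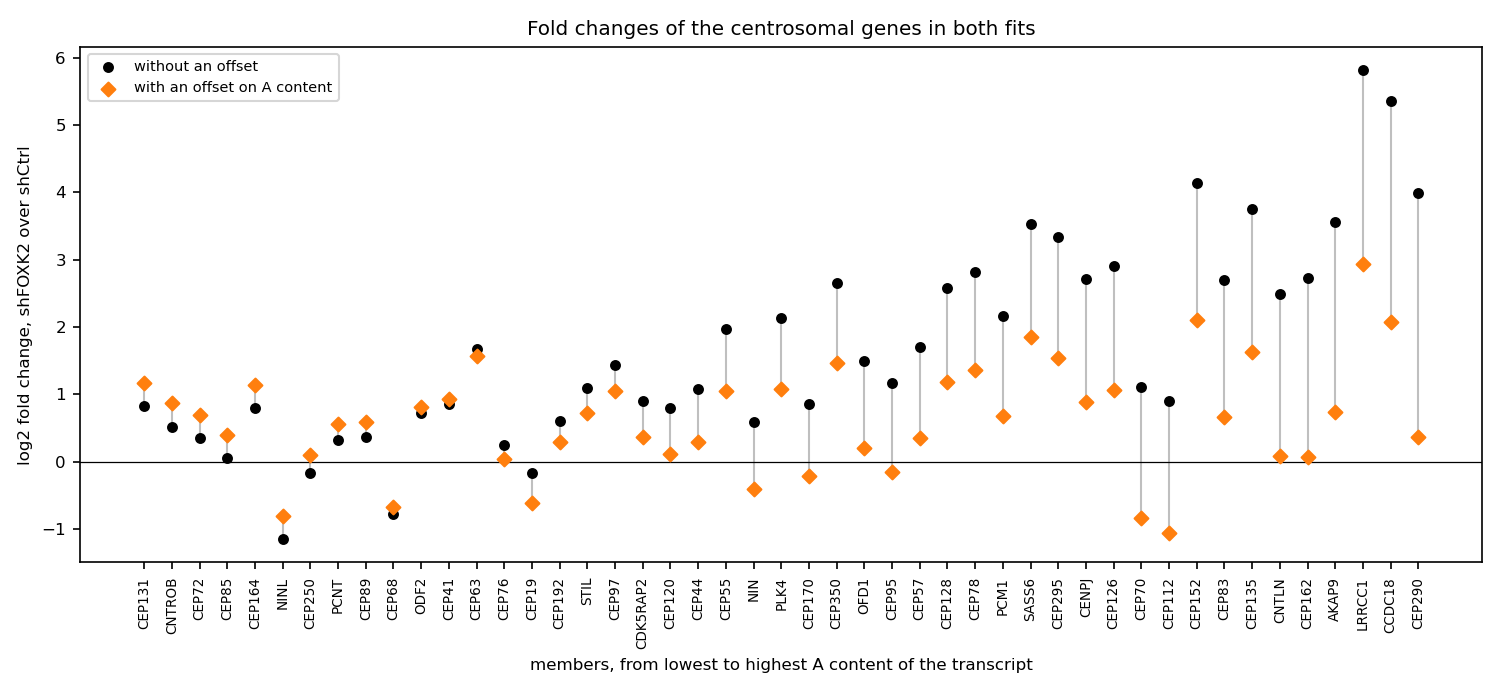
Log2 fold change of 47 of the 48 genes, shFOXK2 over shCtrl (y axis), without an offset (black circles) and with an offset on A content (orange diamonds), the genes being ordered by A content (x axis) and grey lines joining the values of a gene. The lines lengthen towards the right, and LRRCC1 at 2.93 remains the highest with the offset.

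A content also moved with differences inside each group. The log2 ratio of shCtrl replicate 1 to replicate 2 had a median of -0.08 in the genes under 28% A, 0.69 from 28% to 34% and 0.77 at 34% and over, and over all protein-coding genes these medians were -0.17, 0.42 and 0.40. Spearman's coefficient with A content was 0.41 over the 48 genes and 0.68 over all. CCDC18, AKAP9, CEP162 and CEP290, which are among the 5 most A-rich, did not follow this, as their shCtrl libraries were at like levels or, in CEP290, higher in replicate 2. The ratio of shFOXK2 replicate 1 to replicate 2 had medians of 0.25, -0.12 and -0.34 in the 3 classes, with coefficients of -0.66 over the 48 genes and -0.27 over all. Without shCtrl replicate 1 the class medians of log2 fold change were 0.25, 1.73 and 3.54, and without shCtrl replicate 2 they were 0.29, 0.77 and 2.82. The part of composition in the differences between groups, as opposed to a change of these transcripts in the cell, was not tested.

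**Figure D5:**
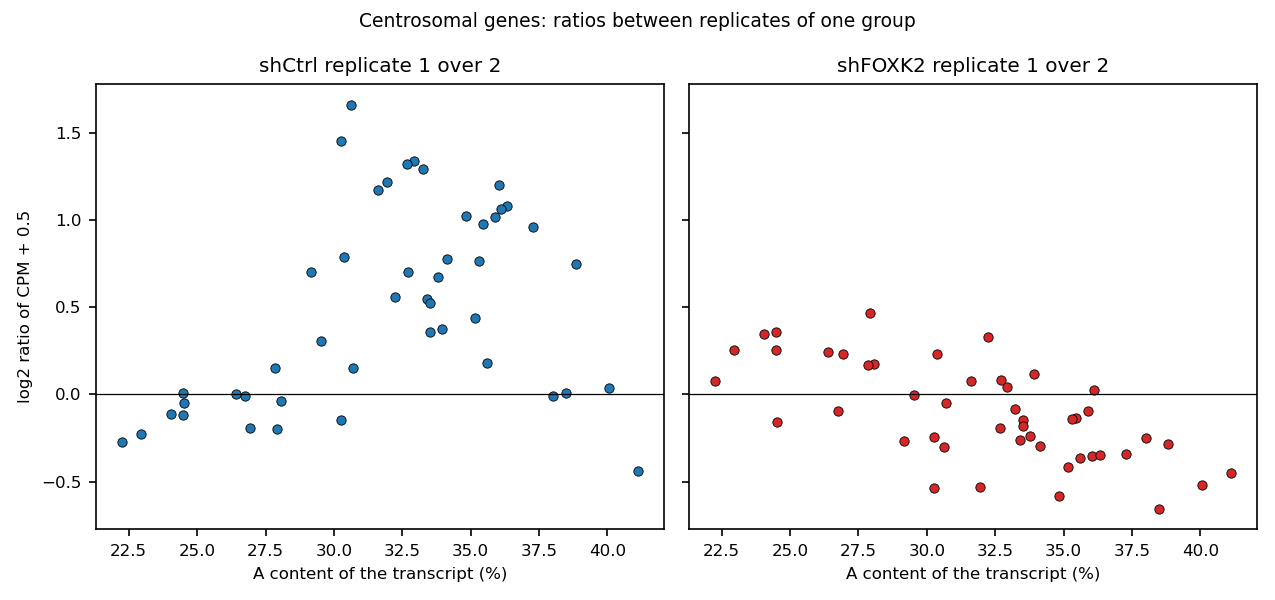
Log2 ratio of CPM + 0.5 between the replicates of a group (y axis) against the A content of the transcript (x axis) for 47 of the 48 genes, shCtrl replicate 1 over 2 at the left and shFOXK2 replicate 1 over 2 at the right. The shCtrl ratios rise to above 1 between 30% and 37% A and return to near 0 or below in most of the richest genes, and the shFOXK2 ratios fall as A content rises.

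Other centrosome genes came from lists that do not overlap the 48 but were chosen with earlier results of these data known. Of their 59 genes 33 were higher and 2 lower, beside 25.7% and 22.7% of all tested genes. By A content, 31.8% were higher under 28% A, 66.7% from 28% to 34% and 100% of 4 genes at 34% and over. Protein-coding genes outside the list of 48 had 12.4%, 31.4% and 80.8%. Nothing is read from the comparison of these shares. Of 33 other centrosome and centriole genes, 19 were higher and 0 lower, with a median log2 fold change of 1.22. Among the 33 were CEP57L1, CEP85L and CEP170B, whose symbols go on after the CEP number. The highest were ANKRD26, a distal appendage protein (4.49, SE 0.31), and ASPM, a spindle pole protein mutated in microcephaly (3.47, SE 0.28), with A contents of 36.8% and 35.7%. CCP110, the capping partner of CEP97, rose by 2.64 (SE 0.41). Of 17 genes of the gamma-tubulin ring complex and of augmin, which together seed microtubules, 9 were higher and 0 lower, with a median of 0.82. TUBG1, which encodes gamma-tubulin itself, was not called (0.57, SE 0.25), and the augmin subunit HAUS6 rose by 2.53 (SE 0.32). Of 9 centrosome and mitotic kinases 5 were higher (CDK1 by 1.91, SE 0.26, and NEK2, which dissolves the linker, by 1.75, SE 0.29) and 2 were lower. The latter, NEK9 and NEK6, act in one mitotic kinase cascade and fell by 1.48 (SE 0.23) and 1.11 (SE 0.23).

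Long coiled-coil proteins away from the centrosome also differed by composition. Of 31 such genes, golgins and others, 19 were higher and 5 lower, beside 25.7% and 22.7% of all tested genes, with a median of 2.67. All 16 of 34% A and over were higher, with a median of 3.53, among them the kinetochore motor CENPE (41.6% A, 4.85, SE 0.30) and the golgin GOLGA4 (38.6% A, 4.23, SE 0.28). Of the 6 under 28% A, 0 were higher and 5 lower, among them the heavy chain of nonmuscle myosin MYH9 (25.4% A), which fell by 1.14 (SE 0.24). The 12 centrosomal genes under 28% A had 3 higher and 2 lower. All of these comparisons use the same 4 libraries, and the difference between the lists was not tested.

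Promoters were searched for the core forkhead motif TGTTTAC on either strand, since FOXK2 is a forkhead factor. RefSeq promoters of 300 bases were matched for 42 of the 48 genes, and 3 of them (7.14%; AKAP9, CEP44 and CEP63) held the motif. It was held by 2.24% of 10793 promoters of tested genes and by 3.41% of all 27305. These counts are small and describe the letters in these windows alone. Reads could also be shared with neighbours, since the strand setting of the counting was not given: CEP290 overlaps exons of C12orf29, CEP68 overlaps RAB1A and CEP250 overlaps CEP250-AS1, each on the opposite strand, and reads of such pairs could not be told apart without strand. ODF2 overlaps ODF2-AS1 in the same way, and CEP131, CEP152, CEP164, CEP170, CEP295 and NIN overlap exons of unnamed genes on the opposite strand. SASS6, CEP112 and PCNT overlap exons of unnamed genes on their own strand, which no strand setting would separate.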

How the data were processed

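Polyadenylated RNA of OVCAR5 cells was sequenced in 2 shCtrl and 2 shFOXK2 libraries. Per the labels' processing notes, the authors aligned reads to GRCh38 with STAR 2.5.2 and counted reads per gene with HTSeq; strand setting and annotation are not given in the sources used here. The deposited values are raw counts, not normalized, in a separate table for each library. Groups came from the sample labels. Genes were filtered with filterByExpr, scaled by TMM and compared by the 2-sided quasi-likelihood test of edgeR 4.0.16 in R 4.3.3, with Benjamini-Hochberg adjusted p-values over the 16417 tested genes called at 0.05. The SE was the size of the log2 fold change over the square root of the F statistic. RPKM divided CPM by the length of the canonical GENCODE transcript on hg38, which also gave base composition. Of 56655 symbols 63.1% matched that annotation, and 84.6% of tested genes had an A content. Offsets were lowess curves of span 0.2. Alternatives were DESeq2 1.42.0, other scalings and filters, a replicate block, offsets for A content, GC content and length, and leaving out each library. The fits were first tried on simulated data.

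The genes and lists were chosen with earlier results of these data known. Named genes were FOXK2, LRRCC1, CCDC18, all duplication genes, the highest and lowest of each other role, the 4 highest and 4 lowest in A content, and all whose sign or call changed under the A-content offset; other genes were named after their values were seen. Chi-square per gene between replicates was 22.9 and 14.6, so the replicates differed by more than counting error. These values cannot say whether the replicates came from separate RNA or cultures. With 2 libraries per group, every p-value rests on sharing variance between genes, and counting floors cover counting error only. A gene of the list and a sequence window are not reported here.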

Additional observations from a re-analysis of the deposited data

How the results depend on the processing

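Across all alternatives, 28 to 38 of the 48 genes were called, against 34, and 6008 to 9207 of all genes, against 7940. Of the 34 calls, 32 remained under DESeq2 and 31 under the GC-content offset. FOXK2 was not called under any alternative (-0.57 to -0.02).

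Lower genes numbered 1 under the replicate block and 4 under the block together with the A-content offset, and ran from 1 to 2 when a library was left out. The median log2 fold change was 0.67 with the A-content offset, 0.68 with the offset and the block, and 0.88 to 1.77 when a library was left out. Over the genes tested in both fits, the median change in a gene's log2 fold change was 0.25 with the A-content offset, 0.20 with the GC-content offset, -0.077 with DESeq2 size factors, 0.037 with library size alone and -0.10 without a filter.

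Some signs changed. With the A-content offset, and with it and the block, the values were -0.16 and -0.16 in CEP95, -0.85 and -0.85 in CEP70, -1.06 and -0.97 in CEP112, -0.21 and -0.15 in CEP170, -0.40 and -0.35 in NIN, and 0.10 and 0.10 in CEP250. With the GC-content offset, CEP76 was -0.13 and CEP250 0.17. CEP85 was -0.018 with DESeq2, -0.018 with its size factors and -0.043 without a filter, and -0.10 to 0.15 when a library was left out. When a library was left out, CEP19 ran from -0.51 to 0.048, the latter without shFOXK2 replicate 1, and CEP192 from -0.023, without shCtrl replicate 2, to 1.501. The cause was not tested. ODF2 lost its call under DESeq2, with its size factors, without a filter and with the replicate block. Calls were lost in CEP131, ODF2 and CEP68 without shCtrl replicate 1, in CEP97, STIL, CEP44 and CEP164 without shCtrl replicate 2, in CEP41, CEP131, CEP164, ODF2 and CEP68 without shFOXK2 replicate 1, and in CEP70, CEP44, CEP131 and CEP68 without shFOXK2 replicate 2; a lone library was taken to vary like the other group.

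Whether the replicate numbers mark paired samples is not stated in the labels. The deviations of same-numbered libraries correlated at -0.11 across genes, which cannot decide it with 2 libraries per group. The replicate block called 7270 of all genes and 34 of the 48 (33 higher and 1 lower), and the crossed pairing, added after seeing the data, called 8350. Depth limits the low genes most, such as CEP112 and LRRCC1 with 13 counts in shCtrl replicate 2.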
